A study of Homo sapiens with 6 samples.

Results

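NKX2-1, PAX8, SOX2, SOX9, TP63, CDX2, GATA2, GATA3, GRHL2 and ELF3 are 10 transcription factors that specify or maintain epithelia other than liver. They were chosen by name, and looked up by NCBI gene ID in a table of 19589 features that compares human cells after knockdown of the long noncoding RNA HOTAIR with control cells. A row was found for 8 of the 10. SOX2 and CDX2 have no row in the table used here and get no value. The libraries are labelled HepG2, a human line derived from a liver tumour and labelled as hepatocellular carcinoma. One group was transfected with siHOTAIR, a small interfering RNA that targets HOTAIR, and the other with a negative control siRNA (siNC); no other genotype, dose or time is given. After removal of ribosomal RNA, total RNA was sequenced.

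Lineage factors of this kind bind DNA and switch on the genes of one tissue while holding others off. NKX2-1 sets the identity of lung and thyroid epithelium, and PAX8 that of thyroid, kidney and Mullerian duct epithelium. SOX2 and TP63 maintain stratified and foregut basal cells, SOX9 marks ductal and progenitor cells, and CDX2 specifies intestine. GATA2 and GATA3 act in blood, trophoblast, breast and urothelium. GRHL2 and ELF3 work across simple epithelia, GRHL2 on junction genes such as CDH1 and ELF3 on genes of terminal differentiation. Hepatocytes are defined by other factors, HNF4A among them, and by the plasma proteins they secrete.

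The deposited table gives 1 mean per feature over all libraries, in reads divided by a size factor (normalized counts). The means held whole-number sums of reads from 5 libraries, 2 of siNC and 3 of siHOTAIR, although the labels describe 3 of each; 1 labelled siNC library is therefore not among the values below. The libraries are called siNC-a, siNC-b, siHOTAIR-a, siHOTAIR-b and siHOTAIR-c here, and the letters carry no order and match no replicate number. Their estimated totals over all features ran from 8350000 to 11200000 reads. HOTAIR itself stood at 202 and 150 normalized counts in siNC and at 62.4, 78.2 and 59.7 in siHOTAIR, a mean of 37.9% of siNC, so the group labels and the target go the same way. The labels do not state whether each library had its own culture, so every SD and p describes variation among these libraries and may be technical.

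The labelled cell type was checked against 26 hepatocyte markers. Of these 11 have no row, among them ALB, AFP and TTR, and 10 of the 15 with a row had a mean under 1 normalized count. APOA1 had a mean of 0.382 and SERPINA1 one of 0.167. The 8 secreted plasma protein genes with a row held 14 reads together over the 5 libraries. HNF4A, the central hepatocyte factor, had a mean of 5.06. Only CEBPA (226) and CPS1, a urea cycle enzyme (23334), had a mean of 100 or more. The secreted hepatocyte products that have a row were therefore at or near 0 in libraries labelled HepG2, and the label is kept below only as a label. The 13 hepatocyte markers with recovered reads summed to 29.1 to 33.5 normalized counts in siNC and 36.4 to 49.6 in siHOTAIR. Per the authors' deposited table, 0 of the 5 hepatocyte markers with an adjusted p rose and 0 fell, with a median log2 fold change of 0.28; 2 had an unadjusted p under 0.05. The smallest adjusted p among them in the authors' deposited table was 0.0521, for CEBPA. Over all features with an adjusted p there, 40.4% passed, and with 5 markers tested nothing is read from the count.

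Sequence just upstream of the transcription start is shown for the 3 members that changed between groups, NKX2-1, PAX8 and GATA2, so that the start regions of the genes that moved can be compared. The windows hold the 250 bases before each RefSeq start on GRCh38.p14; all 3 genes lie on the minus strand, sequences read 5′ to 3′ along the gene, and bases in an annotated GENCODE exon were left off the end. Capitals mark matches, on either strand, to the motifs of GATA factors (AGATAA or TGATAA), of NKX2-1 (CAAGTG), of AP-2 (GCCNNNGGC), of SOX factors (ACAAAG or ACAATG) and of the TATA box (TATAAA); none of these letters overlap another motif in the windows shown.
NKX2-1 upstream of a start, chr14:36520287-36520482: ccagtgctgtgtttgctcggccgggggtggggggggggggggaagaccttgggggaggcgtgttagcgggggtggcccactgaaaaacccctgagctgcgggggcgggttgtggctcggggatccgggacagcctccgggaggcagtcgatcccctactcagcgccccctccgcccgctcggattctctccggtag
NKX2-1 upstream of a start, chr14:36519694-36519806: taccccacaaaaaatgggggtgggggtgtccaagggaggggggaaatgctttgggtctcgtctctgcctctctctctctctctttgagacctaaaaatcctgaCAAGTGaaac
PAX8 upstream of a start, chr2:113278951-113279171: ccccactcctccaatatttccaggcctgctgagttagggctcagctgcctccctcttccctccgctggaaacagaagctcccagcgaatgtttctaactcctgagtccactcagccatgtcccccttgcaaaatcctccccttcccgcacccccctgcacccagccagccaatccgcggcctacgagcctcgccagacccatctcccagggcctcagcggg
GATA2 upstream of a start, chr3:128493202-128493451: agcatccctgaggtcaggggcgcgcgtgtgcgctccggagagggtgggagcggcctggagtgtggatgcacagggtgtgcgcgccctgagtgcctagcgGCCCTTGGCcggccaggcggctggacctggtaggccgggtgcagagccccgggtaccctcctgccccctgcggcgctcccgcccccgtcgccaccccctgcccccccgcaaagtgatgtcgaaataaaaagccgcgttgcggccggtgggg
GATA2 upstream of a start, chr3:128488531-128488780: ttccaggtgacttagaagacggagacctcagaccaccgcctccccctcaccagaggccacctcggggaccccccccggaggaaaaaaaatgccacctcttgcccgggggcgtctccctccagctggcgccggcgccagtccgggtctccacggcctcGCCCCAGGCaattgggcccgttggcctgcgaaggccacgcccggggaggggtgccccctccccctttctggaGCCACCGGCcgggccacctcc

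The first NKX2-1 window and the PAX8 window held none of these letters over their full 250 bases. The second NKX2-1 window held 1 CAAGTG, printed above, and 1 match to AGATAA on the other strand that lies inside an annotated exon and is not printed. Both GATA2 windows held the AP-2 letters, the first once and the second at 2 places. Among 34943 windows of the same length before RefSeq starts, 9.51% held CAAGTG, 14.6% a GATA motif, 19.7% the AP-2 letters, 21.3% a SOX motif and 10.8% TATAAA. GC content was 70.8% and 49.6% in the NKX2-1 windows, 61.6% in PAX8, and 72.8% and 71.2% in GATA2, against a median of 58.0% over all windows. These matches describe letters in the reference and say nothing about binding in these cells.

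The 8 listed members spanned the range from well expressed to almost unread. Levels between genes are given as mean normalized counts per kb of merged exons, where the median of all features listed above 0 was 27.7. GATA2 was highest at 322 per kb, the 89.9th percentile, and ranged from 259 to 368 across libraries. ELF3 followed at 121 per kb, the 75.7th percentile, with a range of 112 to 133. Both ranges rest on the limited search described with GATA2 below. NKX2-1 lay at 27.1 per kb, next to the median, with a range of 19.2 to 35.8. These 3 ranges did not overlap one another or any member below. GATA3 (8.09 per kb, 6.13 to 10.3) and PAX8 (7.79 per kb, 5.12 to 11.7) overlapped and cannot be ordered. SOX9 at 0.764, TP63 at 0.204 and GRHL2 at 0.0327 per kb overlapped each other with lower ends at 0. So 2 members, GATA2 and ELF3, stood above the median level of all features.

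**Figure D1:**
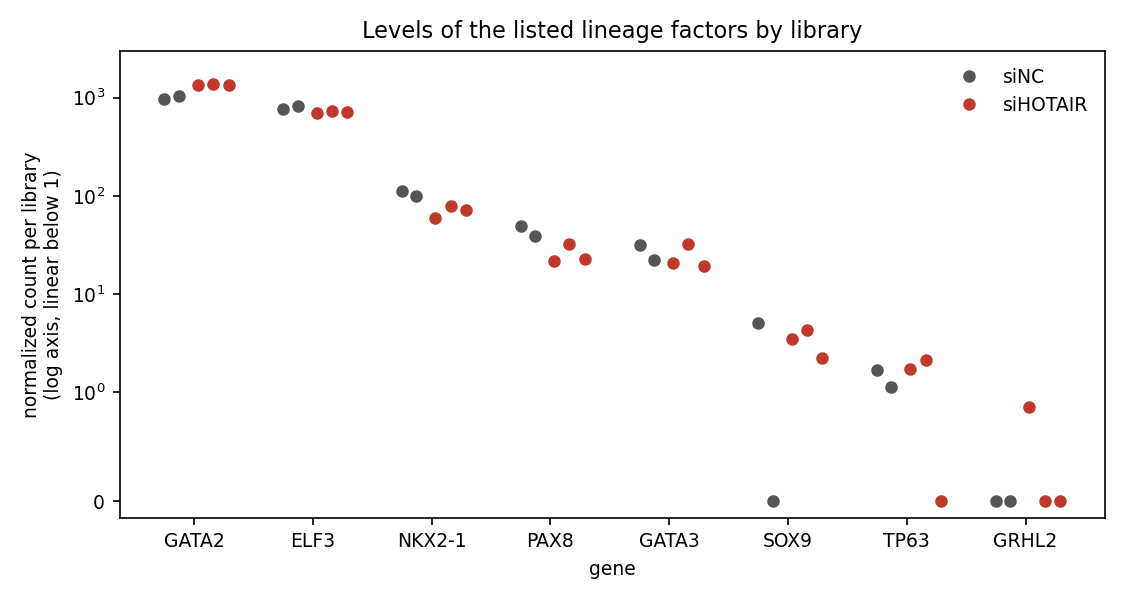
Normalized count of each listed member (y axis, log scale above 1 and linear below) in each of the 5 libraries, with siNC in grey and siHOTAIR in red; each point is 1 library. GATA2 and ELF3 sit between 691 and 1383, as found under the narrower search limits described with GATA2 below. NKX2-1, PAX8 and GATA3 sit between 19.2 and 111. SOX9, TP63 and GRHL2 sit at 5.02 or less with libraries at 0.

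Of the 5 members with an adjusted p in the authors' deposited table, 1 rose after HOTAIR knockdown (GATA2) and 2 fell (NKX2-1 and PAX8), at an adjusted p under 0.05. The remaining pair, GATA3 and ELF3, did not pass. Over all 14597 features with an adjusted p in the authors' deposited table, 40.4% passed, 20.0% higher and 20.4% lower in siHOTAIR, with a median log2 fold change of 0.01. With 5 members tested, 3 calls lie close to that background share, and no excess among these factors can be read from the count. None of them (0 members) is in the authors' own list of 766 differential genes, which needs at least a 2-fold change. In bulk RNA, fewer cells that express a gene and less of its RNA per cell cannot be told apart.

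**Figure D2:**
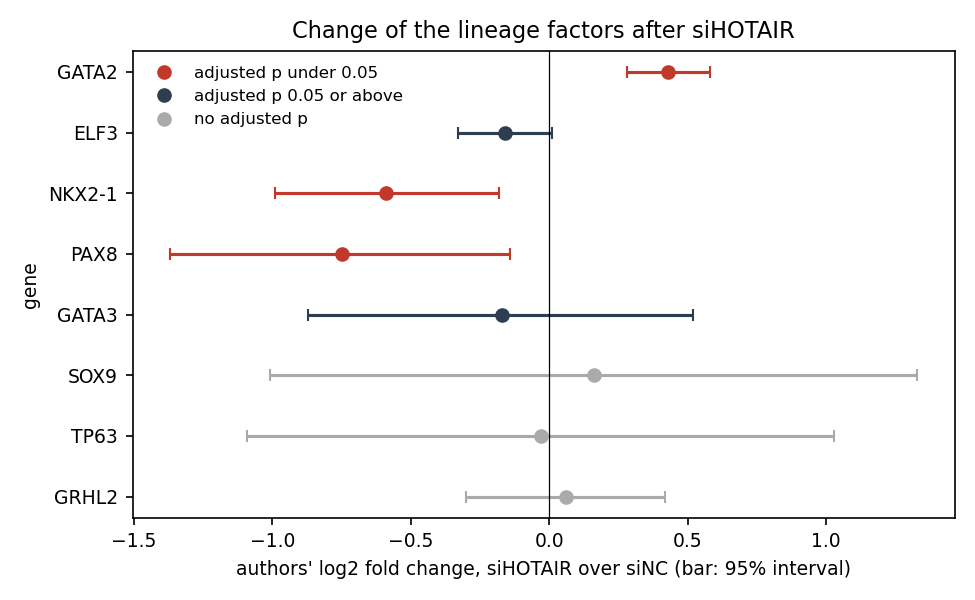
Log2 fold change of siHOTAIR over siNC for the 8 listed members as deposited by the authors (x axis), with a bar for its 95% interval; red marks an adjusted p under 0.05, dark blue one above, grey no adjusted p. GATA2 lies above 0 with its interval, NKX2-1 and PAX8 lie below 0 with theirs, and the other 5 intervals include 0.

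NKX2-1 (gene ID 7080), the lung and thyroid factor, had 111 and 99.7 normalized counts in siNC and 59.8, 78.2 and 72.1 in siHOTAIR. Every siHOTAIR library was below both siNC libraries. The means were 106 ± 8.23 (SD, n = 2) and 70.0 ± 9.37 (SD, n = 3), a level of 66.3% of siNC. The authors' deposited table gives a log2 fold change of -0.59 with a standard error of 0.208 (95% interval -0.99 to -0.18) and an adjusted p of 0.0147. The recovered values gave the same log2 difference, -0.59 (SE 0.167), and an adjusted p of 0.00359 by limma over 2905 features with means of 20 to 100. Without siNC-a the limma adjusted p was 0.0786, in a fit that assumes the lone siNC library varied like the others. In the same range limma called 39.3% of features, and the groups did not overlap for 58.3%. NKX2-1, PAX8 and GATA3 are the 3 members in that range; limma called 2 of them, and the same 2 did not overlap.

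PAX8 (gene ID 7849), the thyroid, kidney and Mullerian factor, had 49.4 and 39.2 normalized counts in siNC and 21.7, 32.1 and 22.5 in siHOTAIR. The groups did not overlap, with siHOTAIR-b nearest to siNC. The means were 44.3 ± 7.20 (SD, n = 2) and 25.4 ± 5.80 (SD, n = 3), or 57.4% of siNC, from 169 reads in all. In the authors' deposited table the log2 fold change was -0.75 with a standard error of 0.314 (95% interval -1.37 to -0.14) and an adjusted p of 0.0418. By limma on the recovered values it was -0.79 (SE 0.261) with an adjusted p of 0.0131. The limma call of PAX8 depended on single libraries, with an adjusted p of 0.186 without siNC-a and of 0.0519 without siHOTAIR-a. With p-values adjusted over every feature that has one, PAX8 no longer passed, at an adjusted p of 0.0557 from the authors' deposited table.

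The antisense transcripts beside these genes were read after the members' values had been seen. PAX8-AS1, transcribed across the PAX8 locus, had 35.2 and 26.9 normalized counts in siNC and 5.20, 9.64 and 10.1 in siHOTAIR. All siHOTAIR libraries were below both siNC libraries, at a mean of 26.8% of siNC. Among features with means of 20 to 100 the groups did not overlap for 58.3%. No such share was computed at the mean of PAX8-AS1, 17.4. The authors' deposited table gives it a log2 fold change of -1.66 with a standard error of 0.417 and an adjusted p of 0.000347. PAX8-AS1 and PAX8 thus both fell, and their difference was not tested. NKX2-1-AS1, which overlaps NKX2-1, held 7 reads in all and has no adjusted p. GATA2-AS1 had a mean of 183 and, in the authors' deposited table, a log2 fold change of 0.06 with an adjusted p of 0.814. The library kit marks strand, but no source names how strand was handled in counting, so reads of a gene and of its antisense partner may have been shared.

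Other lung and thyroid genes were mostly at low levels. Of 17 listed by name, 12 have a row, 8 had a mean under 10 normalized counts, and 6 have an adjusted p. Per the authors' deposited table, 1 of the 6 rose, 1 fell and 4 did not pass, with a median log2 fold change of 0.42. That is 33.3% called on 6 genes, beside 40.4% of all features. FOXE1, the thyroid partner of NKX2-1 and PAX8, had 92.9 and 65.0 normalized counts in siNC and 43.3, 25.7 and 33.8 in siHOTAIR. FOXE1 fell without overlap between the groups, with a log2 fold change of -1.14 and an adjusted p of 0.000146, per the authors' deposited table. Among all features with means of 20 to 100, the groups did not overlap for 58.3%. HHEX, a factor of thyroid and of liver progenitors, had a log2 fold change of -0.06 and an adjusted p of 0.857, per the authors' deposited table. ABCA3, the lipid transporter of lamellar bodies in alveolar type II cells, had the highest mean of the list (2637) and rose, with a log2 fold change of 0.73 and an adjusted p of 2.69e-17, per the authors' deposited table. Of the secreted products, the surfactant gene SFTPB had a mean of 4.44, while TG, SFTPA1 and NAPSA have no row and so no value.

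Among 13 kidney and Mullerian genes that accompany PAX8, 8 have a row and 5 an adjusted p. Per the authors' deposited table, 3 of the 5 rose, 0 fell and 2 did not pass, with a median log2 fold change of 0.33. Over all features 40.4% passed and 20.0% rose, and with 5 genes tested nothing is read from the count. MSLN, the surface protein mesothelin, had a mean of 1032 and a log2 fold change of 0.33 with an adjusted p of 0.000861, per the authors' deposited table. SIX2, a nephron progenitor factor, had a mean of 304 and rose by 0.36 on the log2 scale (adjusted p 0.0120) in the authors' deposited table. CRYAB, a small heat shock protein, had 3 and 0 reads in siNC, and 2.51 and 0.00 normalized counts, against 20.8, 11.8 and 20.3 normalized counts in siHOTAIR. It rose with a log2 fold change of 2.37, which is shrunken at so few reads, and an adjusted p of 7.17e-05, per the authors' deposited table. WT1 and EMX2 have no row, and PAX2, the closest relative of PAX8, had a mean of 0.82.

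GATA2 (gene ID 2624), a zinc finger factor of blood and trophoblast, had 974 and 1029 normalized counts in siNC and 1331, 1383 and 1335 in siHOTAIR. The groups did not overlap, and the spread within each was small. The means were 1001 ± 38.8 (SD, n = 2) and 1350 ± 28.9 (SD, n = 3), or 135% of siNC. The authors' deposited table gives a log2 fold change of 0.43 with a standard error of 0.0754 (95% interval 0.28 to 0.58), a 1.35-fold rise, and an adjusted p of 1.12e-07. GATA2 and ELF3 have too many reads for a free search, so their values per library come from a search limited to libraries within 0.3 of their group mean and a group ratio within 0.03 of the deposited one, on the log2 scale. That search had a single solution for each gene and bounds the spread by its own limits, so the SDs are a description. Wider limits of 0.5 and 0.05 gave 3 solutions for GATA2. In one of the added pair siHOTAIR-c lay at 1030, under siNC-a at 1148, so the gap between groups rests on the narrower limits while the deposited call does not.

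GATA3 (gene ID 2625), the breast, urothelial and trophoblast relative of GATA2, had 31.8 and 22.4 normalized counts in siNC and 20.8, 32.1 and 19.2 in siHOTAIR. The groups overlapped over almost their whole range. The log2 fold change was -0.17 with a standard error of 0.355 (95% interval -0.87 to 0.52) and an adjusted p of 0.747, per the authors' deposited table, an interval that includes the value of PAX8. GATA2 stood 39.8 times above GATA3 per kb of exon, and between 25.4 and 57.9 times across the 5 libraries. The range across libraries uses the GATA2 values of the narrower search limits. Among 11 other GATA genes and cofactors, 10 have a row and 7 an adjusted p. Of the 7, 2 rose, 1 fell and 4 did not pass in the authors' deposited table, with a median log2 fold change of 0.21. That is 42.9% called on 7 genes, beside 40.4% of all features. GATA6, the endodermal family member, had 119 and 106 normalized counts in siNC and 86.6, 65.3 and 77.7 in siHOTAIR. It fell with a log2 fold change of -0.54 and an adjusted p of 0.0211, per the authors' deposited table. GATA4, the family member active in liver, had a mean of 0.224. The cofactors LDB1 (log2 fold change 0.33, adjusted p 0.000465) and ZFPM1 (0.33, 0.0268), which bridge or bind GATA factors, rose in the authors' deposited table, and LMO4 did not pass, with an adjusted p of 0.936.

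**Figure D3:**
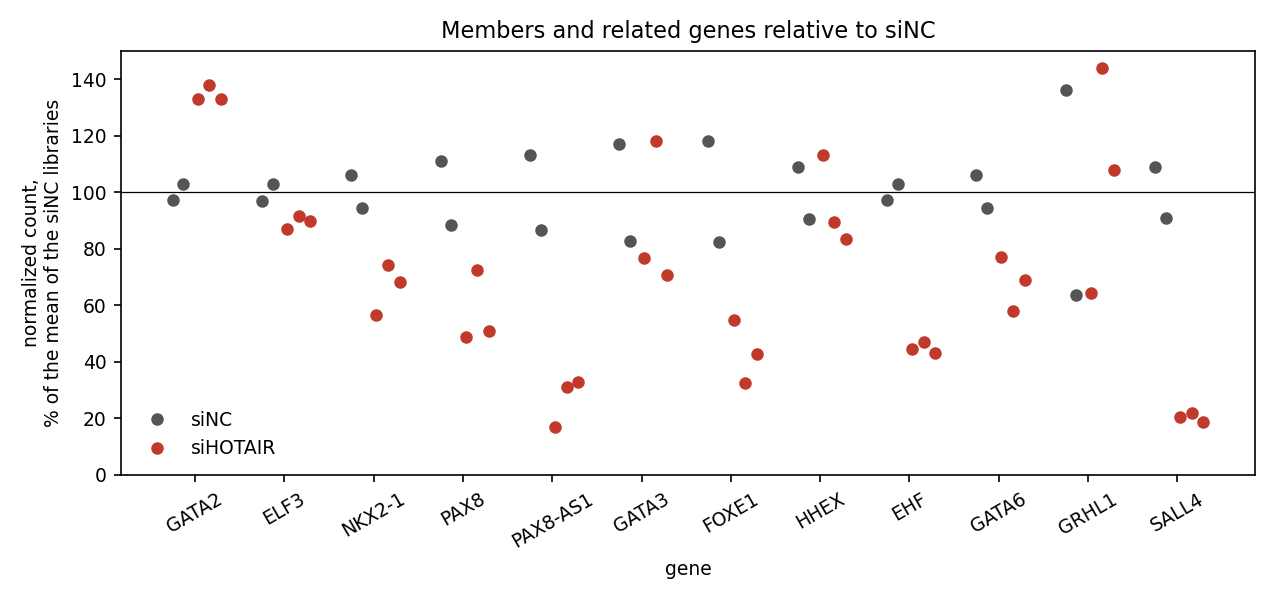
Normalized count of 5 members and 7 related genes in each library as a percent of the mean of the siNC libraries (y axis; the line marks 100%), grey for siNC and red for siHOTAIR. GATA2 lies at 133% to 138% in siHOTAIR under the narrower search limits. ELF3, NKX2-1, PAX8, PAX8-AS1, FOXE1, EHF, GATA6 and SALL4 lie below both siNC libraries, and GATA3, HHEX and GRHL1 overlap with siNC. Among all features with means of 20 to 100, the groups did not overlap for 58.3%. The means of GATA2, ELF3 and PAX8-AS1 lie outside that range.

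The urothelial, breast and trophoblast genes that GATA2 and GATA3 work with were unevenly present. Of 17, 12 have a row and 7 an adjusted p. Per the authors' deposited table, 2 of the 7 rose, 1 fell and 4 did not pass, with a median log2 fold change of -0.30. That is 42.9% called on 7 genes, beside 40.4% of all features. TBX3, a developmental repressor of breast and limb, had a mean of 1362 and rose by 0.60 on the log2 scale (adjusted p 1.54e-14) in the authors' deposited table. XBP1, a factor of secretory cells, had a log2 fold change of -0.87 and an adjusted p of 1.37e-17, per the authors' deposited table. PPARG, a nuclear receptor of urothelium and fat, rose by 0.42 on the same scale (adjusted p 0.00359) in the authors' deposited table. FOXA1 had a mean of 101 and an adjusted p of 0.917, per the authors' deposited table. ESR1 had a mean of 1.78, and PGR, UPK3A and GCM1, markers of hormone-responsive, urothelial and trophoblast cells, have no row.

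ELF3 (gene ID 1999), an ETS factor of simple epithelia, had 770 and 822 normalized counts in siNC and 691, 730 and 715 in siHOTAIR. The siHOTAIR libraries were all below siNC, by a margin that is small beside the level. The means were 796 ± 36.9 (SD, n = 2) and 712 ± 19.6 (SD, n = 3), or 89.4% of siNC. In the authors' deposited table the log2 fold change was -0.16 with a standard error of 0.0868 (95% interval -0.33 to 0.01) and an adjusted p of 0.135, which does not pass. GATA2 and ELF3 were the highest members. With the GATA2 values of the narrower search limits, the ELF3 to GATA2 ratio per kb was 0.481 and 0.487 in siNC. In siHOTAIR it was 0.316, 0.321 and 0.326. In another GATA2 solution under the wider limits siHOTAIR-c lay at 1030, under siNC-a at 1148. The gap between groups in this ratio therefore rests on the narrower limits. EHF, the ETS factor nearest to ELF3 in role, had 104 and 110 normalized counts in siNC and 47.6, 50.3 and 46.2 in siHOTAIR. EHF fell with a log2 fold change of -1.11 and an adjusted p of 3.86e-06, per the authors' deposited table, and the ELF3 to EHF ratio per kb went from 4.75 and 4.80 in siNC to between 9.29 and 9.92 in siHOTAIR.

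GRHL2 (gene ID 79977), the grainyhead factor that holds up CDH1 and other junction genes, was read once in 1 siHOTAIR library and not at all in the other 4. That is 1 read in all, with an exact 95% Poisson interval of 0.0253 to 5.57 for counting error only, and a count of 0 in a library allows up to 3 reads there. CDH1, the junction gene it is known for, had a mean of 4.25, EPCAM one of 0.173, OVOL1 one of 0.675 and ESRP1 one of 0.898. Low levels were not shared by every epithelial gene listed with GRHL2 and ELF3. Of the 20 with a row, 8 had a mean under 10 and 6 one of 100 or more. Among the latter were MAL2 at 501, CLDN7 at 229 and CDH3 at 176. GRHL1, a relative of GRHL2, had a mean of 29.1 and an adjusted p of 0.958, per the authors' deposited table. These cultures therefore held ELF3 RNA at 121 per kb while GRHL2 RNA stood at 0.0327 per kb. Of 22 epithelial genes listed with GRHL2 and ELF3, 20 have a row and 14 an adjusted p. Of the 14, 2 rose, 3 fell and 9 did not pass in the authors' deposited table, with a median log2 fold change of -0.05. That is 35.7% called on 14 genes, beside 40.4% of all features. PRSS8, a membrane serine protease, fell with EHF (log2 fold change -1.15, adjusted p 5.51e-11, in the authors' deposited table). The authors' deposited table gives KLF5, the most abundant gene of the list at a mean of 887, a log2 fold change of -0.24 and an adjusted p of 0.0178. The protease ST14 (0.68, adjusted p 0.00348) and its inhibitor SPINT2 (0.98, adjusted p 0.0162) rose on the log2 scale in the authors' deposited table. ESRP2, an epithelial splicing factor, had a mean of 660 and an adjusted p of 0.751, per the authors' deposited table.

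SOX9 (gene ID 6662), the ductal and progenitor factor, had 5.02 and 0.00 normalized counts in siNC and 3.47, 4.28 and 2.25 in siHOTAIR. The groups overlapped, and the whole evidence is 16 reads (exact 95% Poisson interval 9.15 to 26.0, counting error only). It has no adjusted p, and the authors' deposited table gives a log2 fold change of 0.16 with a standard error of 0.596. Of 13 biliary and ductal genes, 10 have a row and 7 an adjusted p. Of the 7, 0 rose, 2 fell and 5 did not pass in the authors' deposited table, with a median log2 fold change of -0.06. That is 28.6% called on 7 genes, beside 40.4% of all features. Keratins of simple epithelium were abundant, with means of 22106 for KRT8, 13319 for KRT18 and 11514 for KRT7, and none of the 3 passed, with adjusted p of 0.688, 0.319 and 0.615 in the authors' deposited table. KRT19, the other ductal keratin, had a mean of 14.7. The genes that fell in the authors' deposited table were the matrix protein CCN2 (log2 fold change -0.48, adjusted p 4.22e-05) and SOX4 (-0.31, 0.00471), a SOX factor with a mean of 603.

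TP63 (gene ID 8626), the master factor of basal epithelium, held 7 reads in all, 2, 1, 2, 2 and 0 across the libraries (exact 95% Poisson interval 2.81 to 14.4). No direction can be read at that depth. Several genes that basal cells express were nevertheless well read. Of 23 squamous and basal genes, 20 have a row and 16 an adjusted p, of which 4 rose, 4 fell and 8 did not pass in the authors' deposited table, with a median log2 fold change of 0.14 and 50.0% called, beside 40.4% of all features. TFAP2A, an AP-2 factor of surface ectoderm, had a mean of 2894, the keratin KRT17 one of 2605 and the checkpoint protein SFN one of 2309. PERP, a desmosome and p53 target gene, rose by 1.45 on the log2 scale with an adjusted p of 3.51e-79, per the authors' deposited table. Subunits of the basal integrin fell, ITGB4 with a log2 fold change of -1.31 (adjusted p 8.47e-25) and ITGA6 with -0.97 (adjusted p 2.41e-07) in the authors' deposited table. SERPINB5 fell with a log2 fold change of -1.24 and an adjusted p of 1.35e-19, per the authors' deposited table. The other called genes of the list were TFAP2A (log2 fold change 0.19), LAMA3 (0.53) and LAMB3 (0.26), which rose, and KRT17 (-0.31), which fell. The basal keratins KRT5 and KRT6A have no row, and KRT14 had a mean of 0.173.

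For SOX2 and CDX2 only the surrounding genes can be described. Of 9 pluripotency genes, 8 have a row and 3 an adjusted p. Of the 3, 0 rose, 1 fell and 2 did not pass in the authors' deposited table, with a median log2 fold change of -0.29. Over all features 40.4% passed, and with 3 genes tested nothing is read from the count. SALL4, a zinc finger factor of embryonic cells and of some liver tumours, had 176 and 147 normalized counts in siNC and 32.9, 35.3 and 30.4 in siHOTAIR. It fell in every siHOTAIR library, with a log2 fold change of -2.21 and an adjusted p of 1.51e-21, per the authors' deposited table. Groups without overlap were common, at 58.3% of features with means of 20 to 100. POU5F1, whose reads can be shared with its pseudogenes, had a mean of 45.0, KLF4 one of 76.9, and NANOG has no row. Of 15 intestinal genes, 11 have a row and 7 of these had a mean under 1. Of these 1 has an adjusted p in the authors' deposited table, and 0 rose and 0 fell, also at an unadjusted p under 0.05. CDX1 had a mean of 0.225, and CDH17, TFF3 and PDX1 have no row.

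Markers of other cell types were read beside these factors. Of 13 mesenchymal genes, 12 have a row, all with an adjusted p, and 5 rose, 1 fell and 6 did not pass in the authors' deposited table, with a median log2 fold change of 0.26. That is 50.0% called, beside 40.4% of all features (20.0% higher and 20.4% lower), on 12 genes. Their means included 5622 for VIM, 1591 for COL1A1 and 973 for FN1. VIM rose by 0.36 on the log2 scale with an adjusted p of 2.61e-06, and FN1 had a log2 fold change of -0.67, in the authors' deposited table. COL1A1 (0.86), PDGFRB (1.24) and SNAI2 (1.16) rose on the log2 scale in the authors' deposited table. Of 8 leukocyte and endothelial genes, 6 have a row and 5 an adjusted p. Of the 5, 1 rose (VWF), 1 fell (CD68) and 3 did not pass in the authors' deposited table, with a median log2 fold change of -0.05. That is 40.0% called on 5 genes, beside 40.4% of all features. PTPRC and CD3E have no row, and CDH5 had a mean of 83.2. Whether a change in the makeup of the cultures has a part in the changes of GATA2, NKX2-1 or PAX8 was not tested.

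**Figure D4:**
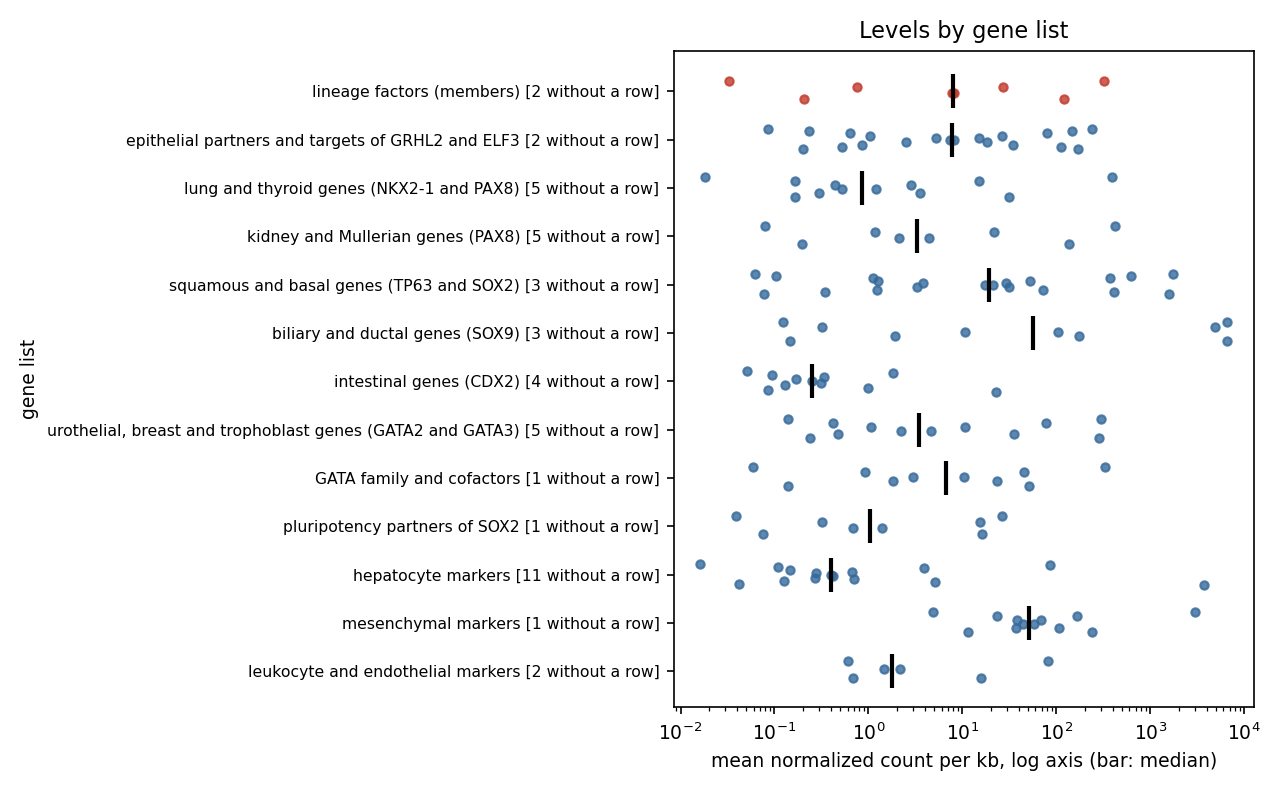
Mean normalized count per kb of merged exons (x axis, log scale) for each gene with a row in the members and in 12 lists of related genes (y axis), with a black bar at each median. The members spread from 0.0327 to 322 per kb, the hepatocyte and intestinal lists centre at 0.401 and 0.249, and the biliary and ductal list at 56.8.

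Set side by side by median level per kb, the biliary and ductal list (56.8), the mesenchymal list (51.4) and the squamous and basal list (19.2) stood highest. The epithelial list (7.75), the GATA list (6.72), the urothelial, breast and trophoblast list (3.45) and the kidney and Mullerian list (3.27) followed. The leukocyte and endothelial (1.80), pluripotency (1.04), lung and thyroid (0.863), hepatocyte (0.401) and intestinal (0.249) lists were lowest. These medians cover only genes with a row and describe levels, and no tissue of origin follows from them. Within the members, GATA2 and ELF3 were read with TFAP2A, KRT7, KRT8 and KRT18 at high levels and with VIM, while GRHL2, TP63, SOX9 and the secreted hepatocyte products with a row were at or near 0.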

How the data were processed

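RNA sequencing covered libraries labelled HepG2 with siHOTAIR or siNC, grouped by title. The authors used HTSeq 0.6.1, DESeq and DESeq2 with build hg19, per the submitters' processing notes; no aligner and no strand setting are named in the sources used here. The authors' deposited tables hold no value per library (0 such columns). The mean column is a signal, deposited by the authors as the mean over libraries of size-factor normalized counts. The authors deposited each log2 fold change with its standard error, and a score that is their quotient. The p-values and adjusted p-values were deposited by the authors; features under a mean of 3.73 have no adjusted p.

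Since the planned edgeR test needs counts, the authors' deposited comparison was used at an adjusted p under 0.05, and a 95% interval is the deposited value and its standard error under a normal distribution. Reads per library were recovered as whole-number sums of 5 steps: all 10555 features that were read and had a mean of at most 115 gave a single solution, and 0 of 300 gave one after a random offset. A step was assigned to siHOTAIR or siNC by the sign of the deposited fold changes of features with 1 read there. limma 3.58.1 (R 4.3.3, mean trend) was run on log2(normalized count + 1) for 2905 features with means of 20 to 100, with Benjamini-Hochberg adjustment, after a test on simulated data. Levels per kb used merged exon lengths from GENCODE 29, which may differ from the authors' annotation. Symbols came from RefSeq (19108 features by gene ID, 386 by accession, 95 unmatched). All 10 members are named; of each list the up to 4 genes with the smallest p among those that passed, the up to 3 with the highest means and up to 3 without a row or at the lowest level were named, and others named were chosen after their values were seen, as were the motifs and antisense genes. Some list genes are counted but not reported here by name. The members and lists were chosen with earlier results of these data known.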

Additional observations from a re-analysis of the deposited data

How the results depend on the processing

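The count of 3 members called in the deposited comparison was 3 in the authors' other deposited table of the contrast, which holds the same values, and 2 with p-values adjusted over all features that have one. Under the authors' own limits of an adjusted p under 0.001 and at least a 2-fold change it was 0. By limma on the recovered values, 2 of 3 members were called, and also with a pseudocount of 0.5, with limma-voom and with no lower limit on the mean. Leaving out each library in turn gave 0 to 2 called members: 0 without siNC-a and 1 without siHOTAIR-a. Fewer libraries were tested there. Across these, the log2 difference ran from -0.67 to -0.48 for NKX2-1, -0.96 to -0.63 for PAX8 and -0.43 to 0.06 for GATA3, which reversed to 0.06 without siNC-a. The log2 ratio of group means ran from 0.39 to 0.47 for GATA2 and from -0.21 to -0.11 for ELF3. This alternative was chosen after seeing the data. Both ranges use values per library from the limited search, whose limits of 0.3 and 0.03 bounded them in advance. They are therefore no test of stability, and GATA2 had 3 solutions under the wider limits. The number of members above the median level was 2 per kb of merged exons or of coding length, and 3 with the longest transcript or without division by length. No paired analysis was possible because the recovered libraries carry no replicate numbers. The planned edgeR comparison of TMM with DESeq2 size factors was not run, since the table gives no count per library for most abundant features. Depth limits SOX9, TP63 and GRHL2, each with 16 reads or fewer in all, to a statement of level.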
